A study of Rattus norvegicus with 16 samples.

Results

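Liver of male Lewis rats aged 24 months was compared with liver of the same strain and sex aged 12 months, using 7 of the 16 arrays of an age series that also holds rats of 3, 9 and 18 months. The 7 arrays were chosen by the age in their labels and their titles: replicates 1 to 4 at 24 months and replicates 2, 3 and 4 at 12 months. Lewis is an inbred laboratory strain. The rats of both ages carried no engineered allele and received no agent that the labels name, were kept free of specific pathogens on a 12-h light and dark cycle, and ate and drank freely. Livers were frozen in liquid nitrogen, and total RNA was hybridised to 1-colour rat gene expression arrays, 1 array per sample. The labels name a labelling kit for microRNA although the probes are for genes. They do not say that each array is a separate rat, so the p-values measure the spread between these samples. The hour of collection, body weight and pathology of the rats are not given. The series title concerns the rejuvenation of an old liver in a young systemic environment, and the labels name no manipulation for these 7 samples, which differ by age.

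The liver carries out its metabolic work in hepatocytes, which synthesise plasma proteins, cholesterol, bile acids and glucose and clear drugs. Around them lie Kupffer cells (resident macrophages), sinusoidal endothelium, stellate cells, bile duct cells (cholangiocytes) and a resident population of T and NK lymphocytes. In old rodents the liver is known for an increase of immune cells and for the loss, in males, of genes kept on by the pulsatile growth hormone of young adults, such as those of the major urinary protein family. MHC class II molecules, made mainly by antigen-presenting cells, show peptides to CD4 T cells. Interferon, above all the gamma form made by T and NK cells, switches on class II genes and a set of GTPases and chemokines.

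All levels below are log2 signals relative to the 75th percentile of the array, so that 0 is the 75th percentile and a difference of 1 is 2-fold. They compare arrays, not genes. Per-array values are given in the order of replicates 2, 3 and 4 at 12 months, then replicates 1, 2, 3 and 4 at 24 months. A gene was called when its adjusted p (limma's moderated statistic, Benjamini-Hochberg over 21458 genes) was under 0.05.

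Called members of the lists of MHC class II presentation (6 of 10), T and NK cells (14 of 27) and macrophages (8 of 26) were all higher at 24 months, and those of chemokines (7 of 25 higher, 1 lower) and cholesterol synthesis (5 of 24 higher, 1 lower) were mostly so. More genes in all were lower, many of them near background. Of 21458 genes tested, 3211 were called, which is 15%. Of these, 882 were higher at 24 months (4.11%) and 2329 were lower (10.9%). The counts of called list members below are to be read against these shares. A change of at least 2-fold was reached by 234 of the higher genes (1.09%) and 1279 of the lower ones (5.96%). All 24-month arrays lay above all 12-month arrays for 1261 genes (5.88%) and below them for 2567 genes (12%). The median log2 change of all genes was -0.05. With the 2 ages alone, and with the array slide as a random block, limma called 0 members of the class II, the T and NK cell and the cholesterol lists, where 6, 17 and 7 and then 6, 15 and 2 members had an unadjusted p under 0.05.

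How firm these calls are depends on the estimate of spread. The median SD between arrays of an age was 0.289 at 12 months and 0.259 at 24 months, against 0.0847 at 3 months, 0.151 at 9 months and 0.131 at 18 months, and the main test pooled the spread of all 5 ages. With the arrays of 12 and 24 months alone, limma called 568 genes, 14 higher and 554 lower, and 557 of them were among the 3211. With the array slide as a random block it called 622, 34 higher and 588 lower, all among the 3211. The call held without each of the 7 arrays in turn for 233 higher genes (1.09%) and 1264 lower genes (5.89%). No slide and no scan day held both ages, so slide and age cannot be told apart. Scan session was partly mixed with age as well. Replicates 3 and 4 of 12 months were scanned in session 2, and 12-month replicate 2 and all 24-month arrays in session 1. Leaving out 12-month replicate 4 reduced the calls to 1986, and leaving out 24-month replicate 4 raised them to 4798.

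The arrays of an age were not alike. Replicate 4 of the 24-month group had a mean correlation of 0.9788 with the 12-month arrays and of 0.9752 with its own age, and its 75th percentile lay at an intensity of 195, close to 171, 217 and 192 at 12 months. The other 24-month arrays had 75th percentiles of 357, 325 and 412. Between 52.5% and 61.3% of probes lay well above background on the 7 arrays, with the lowest share on 24-month replicate 4. No spot was saturated. Without 12-month replicate 2 and 24-month replicates 3 and 4, 5024 genes were called, 1974 higher and 3050 lower, 2622 of them among the 3211. Those arrays had the lowest mean correlation with their own age, so leaving them out lowers the spread by its construction, and it leaves 2 arrays of slide 6 at 12 months against 2 of slide 4 at 24 months. The change also moved with the level of a gene. Among 2353 genes with a mean level under -4 the median change was -0.60, with 24 called higher and 598 lower. Among 159 genes over 8 it was -0.32, with 1 called higher and 26 lower, and among 13491 genes between -2 and 8 it was 0.01. After quantile normalization the medians of the dimmest and brightest classes were -0.40 and 0.00. The part of this shift in the falls of the dimmest and brightest genes was not tested.

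**Figure D1:**
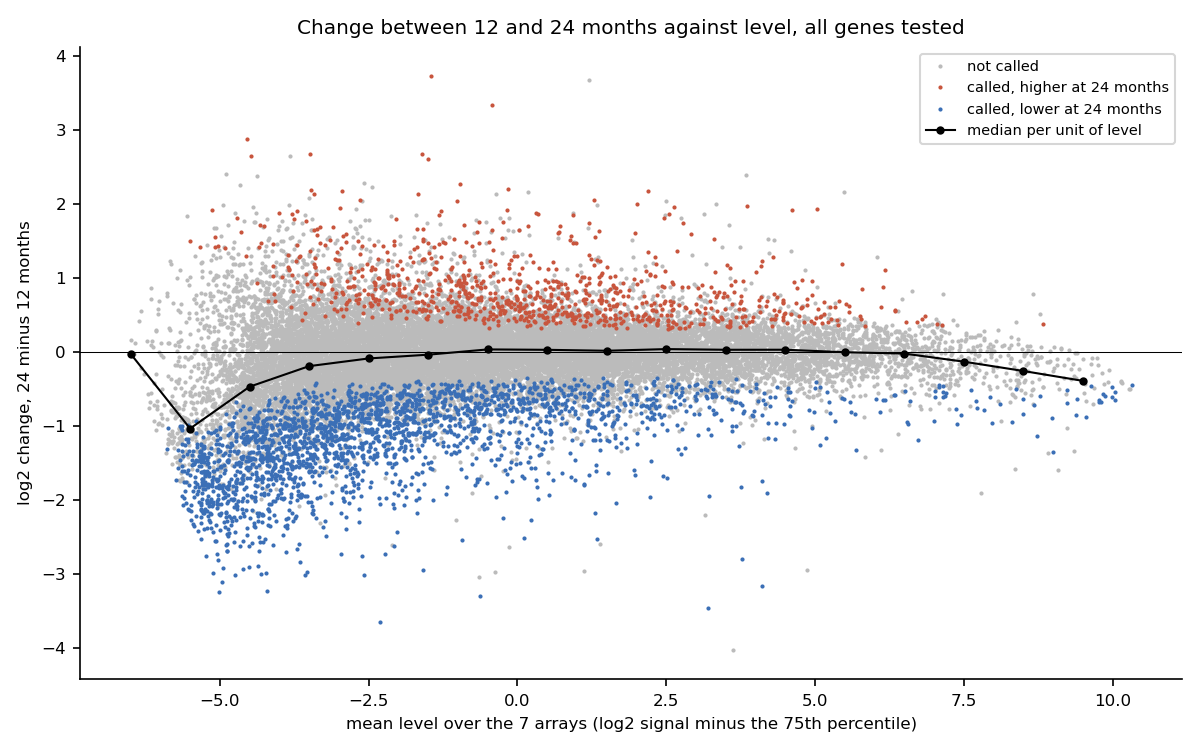
Log2 change from 12 to 24 months (vertical axis) against the mean level over the 7 arrays (horizontal axis, log2 signal minus the 75th percentile), 1 point per gene; red and blue points are called genes and the black line is the median per unit of level. The 13491 genes with levels between -2 and 8 centre on 0.01, and the medians lie below 0 among the dimmest and the brightest genes.

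Several of the genes with the largest rises are known from liver development, cell adhesion and transport. H19, an imprinted non-coding RNA that is abundant in fetal liver, read -3.06, -1.61 and -2.34 at 12 months and 2.38, 1.58, 1.36 and -1.29 at 24 months. Its 24-month level was 10.2-fold higher (log2 change 3.34, SE 0.76, adjusted p = 0.011). No array of 24 months lay below an array of 12 months, although 24-month replicate 4 came within reach of 12-month replicate 3. Of 11 oncofetal and regeneration genes, H19 and Bex1 rose and none fell, 18.2% called against 15% of all genes. Bex1 was dim, well above background on 0 of the 12-month arrays and on 3 of the 24-month arrays. Its call ended without any of 4 arrays and with a normexp background (log2 change 0.32, adjusted p = 0.947). The call of H19 held without each array and was lost with the 2 ages alone (adjusted p = 0.081) and with the slide block (0.142).

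Cdh13 encodes T-cadherin, a membrane-anchored adhesion protein that binds adiponectin. It read -3.37, -2.44 and -3.61 at 12 months and -0.39, -2.19, 0.00 and 0.75 at 24 months, a 6.42-fold rise (log2 change 2.68, SE 0.50, adjusted p = 0.00366). Here 24-month replicate 2 stayed near the 12-month arrays and replicate 4 was the highest. Both of its probes moved the same way.

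Abcc3, an exporter that carries bile acids and glucuronides out of hepatocytes into blood, read -3.05, -2.90 and -3.03 at 12 months. At 24 months it read 0.39, -0.64, 1.18 and -2.48, and the mean was 6.09-fold higher (log2 change 2.61, SE 0.60, adjusted p = 0.0111). The 12-month arrays were nearly equal, while the 24-month arrays were spread widely, with replicate 4 the lowest. Enc1, an actin-binding protein, read 0.75, 1.13 and 0.97 at 12 months and 3.84, 2.67, 4.57 and 1.45 at 24 months (log2 change 2.18, adjusted p = 0.0146), again with replicate 4 nearest to the younger samples.

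Igfbp2, a secreted binder of insulin-like growth factors that is also abundant in fetal liver, was not well above background in 1 older sample and had a larger fitted rise. Igfbp2 read -3.65, -4.20 and -2.90 at 12 months and 0.63, 2.19, 1.67 and -3.88 at 24 months (log2 change 3.73, SE 1.16, adjusted p = 0.0445). Its level in 24-month replicate 4 lay within the 12-month range, and leaving out any array other than that replicate ended the call. Hdc, the enzyme that makes histamine, read 1.09, -0.82 and 0.08 at 12 months and 1.97, 1.95, 3.08 and 1.67 at 24 months (log2 change 2.05, SE 0.44, adjusted p = 0.00812). All 4 older samples lay above the younger ones, and the call held without each array.

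Of the genes with smaller spread, Fbp2, the muscle form of fructose bisphosphatase, read -0.16, 0.22 and -0.75 at 12 months and 1.46, 1.67, 1.46 and 0.91 at 24 months. It was 3.06-fold higher (log2 change 1.61, SE 0.27, adjusted p = 0.00161). The gene remained called with the 2 ages alone (adjusted p = 0.0331) and was not called with the slide block (0.0752). Foxa3, a transcription factor of liver-expressed genes, read -0.15, 0.19 and -0.04 at 12 months and 1.31, 1.21, 1.37 and 0.61 at 24 months (log2 change 1.12, SE 0.19, adjusted p = 0.00203). The ages did not overlap for either gene.

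**Figure D2:**
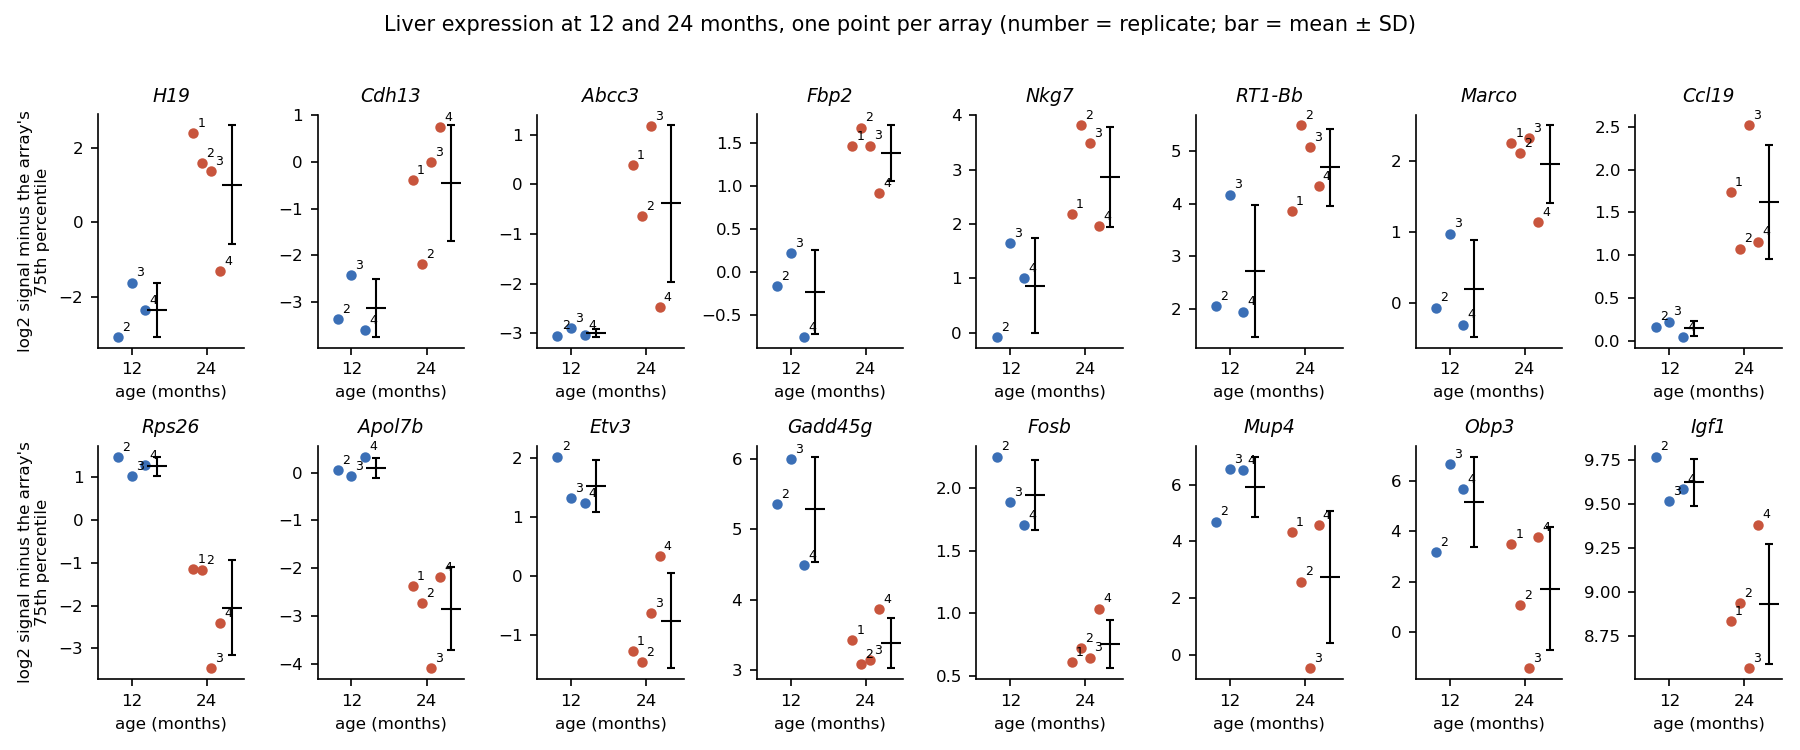
Level of 16 genes on each array (vertical axis, log2 signal minus the array's 75th percentile) at 12 and 24 months; each point is 1 array with its replicate number, and the black bar is the mean with its SD. H19, Abcc3 and Igf1 show 24-month replicate 4 nearest to the 12-month arrays, while Rps26, Apol7b and Fosb separate the ages with no overlap.

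The largest falls among genes above background on all 7 arrays included the major urinary protein family. These pheromone carriers are made in quantity by the liver of young adult male rats. Obp3 read 3.17, 6.68 and 5.69 at 12 months and 3.50, 1.07, -1.47 and 3.77 at 24 months (log2 change -3.46, SE 1.03, adjusted p = 0.0386). Mup4 read 4.69, 6.55 and 6.52 at 12 months and 4.32, 2.58, -0.47 and 4.58 at 24 months (log2 change -3.17, SE 0.89, adjusted p = 0.0304). The lowest value of each was in 24-month replicate 3. For Obp3 the ages overlapped, since 12-month replicate 2 lay below 24-month replicates 1 and 4, and leaving out any of 4 arrays (12-month replicates 3 and 4, 24-month replicates 2 and 3) ended the call. The genes of this family are near-identical copies, so the probes may read several of them.

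Rps26, a protein of the small ribosomal subunit, read 1.47, 1.02 and 1.28 at 12 months and -1.15, -1.16, -3.47 and -2.41 at 24 months. It was 9.9-fold lower (log2 change -3.31, SE 0.42, adjusted p = 0.000316). The younger samples lay close together and every older sample lay well below all of them. The call held without each array, with the 2 ages alone (adjusted p = 0.0291), with the slide block (0.00176) and with a normexp background (0.000692). Rpl37al2, a ribosomal protein L37a-like gene, read 2.13, 2.61 and 2.88 at 12 months and 0.67, 0.76, -0.43 and 0.46 at 24 months (log2 change -2.17, SE 0.25, adjusted p = 0.000153). Ribosomal protein genes have many processed copies, and which copy each probe reads is uncertain.

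Apol7b, a member of the apolipoprotein L family, read 0.05, -0.07 and 0.34 at 12 months and -2.37, -2.73, -4.10 and -2.19 at 24 months. It was 7.75-fold lower (log2 change -2.96, SE 0.35, adjusted p = 0.000216) and was called in the same 4 ways as Rps26. Etv3, a repressor of the ETS family, read 2.02, 1.32 and 1.23 at 12 months and -1.27, -1.46, -0.63 and 0.33 at 24 months (log2 change -2.28, SE 0.34, adjusted p = 0.000922), with the highest older sample still below the lowest younger one. Trpv6, an epithelial calcium channel, read -0.87, 0.13 and -0.57 at 12 months and -3.21, -2.63, -3.14 and -1.50 at 24 months (log2 change -2.18, SE 0.34, adjusted p = 0.00116).

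Slc2a5, the fructose transporter GLUT5, read 4.95, 4.0 and 4.06 at 12 months and 2.64, 2.27, 1.08 and 3.54 at 24 months (log2 change -1.95, SE 0.42, adjusted p = 0.00819). Slc31a1, the copper importer, read -1.84, 0.09 and 0.04 at 12 months and -2.66, -2.43, -2.72 and -2.47 at 24 months (log2 change -2.0, SE 0.35, adjusted p = 0.00215). The older samples were tightly grouped for Slc31a1, and 12-month replicate 2 lay nearest to them. That replicate was scanned in session 1, as all older samples were, and 12-month replicates 3 and 4 in session 2. The part of scan session was not tested. Notch1, a receptor of the Notch family, read -0.39, 1.0 and 0.94 at 12 months and -1.15, -2.62, -3.89 and -0.45 at 24 months. Its log2 change of -2.54 (adjusted p = 0.0135) was no longer called without 12-month replicate 4 (0.0562).

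Across the main fit, the fit to the 2 ages alone, the slide block, quantile normalization and each left-out array, 383 genes were called throughout, 5 higher and 378 lower. Of these, 70 had a symbol and lay above background on all 7 arrays, 1 higher and 69 lower. The higher gene, singled out after its values were seen, was Lgals3bp, a secreted glycoprotein that binds galectin-3. It read 3.53, 3.60 and 3.08 at 12 months and 4.63, 4.71, 4.59 and 4.57 at 24 months (log2 change 1.22, SE 0.14, adjusted p = 0.000173). The older samples lay close together and above every younger one. Its mean was 3.04 at 18 months and 4.90 at 3 months, so the youngest rats of the series lay above those of 24 months. Marcksl1, an actin-regulating substrate of protein kinase C, chosen in the same way, read 5.38, 4.91 and 5.05 at 12 months and 3.69, 3.36, 3.00 and 3.42 at 24 months (log2 change -1.75, SE 0.16, adjusted p = 5.3e-05). Inhbe, the activin E subunit made by hepatocytes, read 1.11, 1.83 and 1.84 at 12 months and 0.31, -0.37, -0.72 and 0.23 at 24 months (log2 change -1.74, SE 0.26, adjusted p = 0.000917).

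Antigen presentation by MHC class II was the gene list with the highest share of called members. Of 10 measured members, 6 rose (RT1-Bb, RT1-Da, RT1-Db1, RT1-DMa, Cd74 and Ctss), none fell, all 10 changes were above 0 and the median was 1.59, against -0.05 for all genes. RT1-Bb, a class II beta chain, read 2.04, 4.18 and 1.95 at 12 months and 3.86, 5.50, 5.08 and 4.34 at 24 months, a 3.93-fold rise (log2 change 1.97, SE 0.47, adjusted p = 0.0131). RT1-DMa, which helps load peptide on class II, read 0.62, 2.81 and 1.11 at 12 months and 2.58, 4.18, 3.24 and 3.88 at 24 months (log2 change 1.96, SE 0.44, adjusted p = 0.0104). Cd74, the invariant chain that escorts class II, read 3.20, 5.33 and 3.25 at 12 months and 5.0, 6.71, 6.12 and 5.62 at 24 months (log2 change 1.94, SE 0.45, adjusted p = 0.0129).

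In each of these genes 12-month replicate 3 stood high among the younger samples and overlapped the lowest older sample, 24-month replicate 1. The mean level of the list ran from 1.28 to 2.77 at 12 months and from 2.47 to 3.88 at 24 months. Calls of RT1-Bb and Cd74 ended without 12-month replicate 4 (adjusted p = 0.0648 and 0.0629), while RT1-DMa was the only member whose call held without each array. With the 2 ages alone RT1-Bb had an adjusted p of 0.153, and with the slide block of 0.199. RT1-Ba read -2.58, 0.47 and -1.22 at 12 months and -0.34, 1.45, 1.44 and -0.38 at 24 months and missed the threshold (log2 change 1.65, adjusted p = 0.0834). Ciita, the master activator of class II transcription, had a log2 change of 0.76 (adjusted p = 0.33).

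Promoter stretches are shown for the 4 called class II list members that hold both motifs given below. Cd74 and Ctss, which were also called, did not hold the first motif in the window searched. Class II promoters are textbook examples of an X box followed by a Y box, an inverted CCAAT. The stretches are from RefSeq (GRCr8), in the direction of transcription, with the motif GNNACNGATG and the ATTGG of the inverted CCAAT in capitals.
RT1-Da: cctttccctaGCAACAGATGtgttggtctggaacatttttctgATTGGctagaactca
RT1-Db1: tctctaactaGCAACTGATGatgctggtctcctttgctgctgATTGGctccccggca
RT1-DMa: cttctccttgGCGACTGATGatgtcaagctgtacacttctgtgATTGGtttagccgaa
RT1-Bb: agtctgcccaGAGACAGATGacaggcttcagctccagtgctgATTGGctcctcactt
All of them lie on chromosome 20, at chr20:4515323-4515380 on the plus strand for RT1-Da and, on the minus strand, at chr20:4560228-4560284 for RT1-Db1, chr20:4712385-4712442 for RT1-DMa and chr20:4604165-4604221 for RT1-Bb. They end 34, 65, 49 and 46 bases before the annotated start, in the order printed. On both strands of the 250 bases before the start, GNNACNGATG was found in 4 of the 9 class II list members with a promoter in the table and in 1.68% of the promoters of 9476 genes tested. CCAAT was found in 6 of the 9 and in 35.9% of all. The letters searched were settled on after these promoters had been seen, and a match describes the sequence alone.

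T and NK cell genes formed the second large group. Of 27 measured, 14 rose, none fell, all 27 changes were above 0 and the median was 1.23. All older samples lay above all younger ones for 13 of them, against 5.88% of all genes. Nkg7, a protein of cytotoxic granules, read -0.08, 1.65 and 1.01 at 12 months and 2.19, 3.82, 3.49 and 1.97 at 24 months, a 4.01-fold rise (log2 change 2.0, SE 0.43, adjusted p = 0.0083). Prf1, perforin, read -0.26, 0.22 and -0.26 at 12 months and 0.57, 1.49, 1.60 and 0.79 at 24 months (log2 change 1.22, SE 0.24, adjusted p = 0.00438). Zap70, the kinase behind the T cell receptor, read -0.87, 0.06 and 0.02 at 12 months and 0.67, 2.24, 2.16 and 0.70 at 24 months (log2 change 1.70, SE 0.37, adjusted p = 0.00807).

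In all of these, 24-month replicates 2 and 3 were the highest and replicates 1 and 4 lay between them and the younger samples. The NK receptor Klre1, named for its rise and no member of the list, followed the same order with -3.02, -1.19 and -2.34 at 12 months and -0.83, 0.74, 0.46 and -0.94 at 24 months (log2 change 2.04, SE 0.42, adjusted p = 0.00657). Gzmb, granzyme B, rose by 1.26 (SE 0.27, adjusted p = 0.00712), and Ccl5, the chemokine RANTES made by activated T cells, rose by 1.92 (SE 0.53, adjusted p = 0.0283). The T cell receptor subunits Cd3g and Cd3d rose by 1.62 and 1.23, while Cd3e missed the threshold with 1.56 (adjusted p = 0.109). Among the coreceptors Cd8a rose by 1.72 (adjusted p = 0.037), whereas Cd4 had a change of 0.90 (0.085) and Cd8b of 1.21 (0.098). The call held without each array for 7 of the 14. In bulk tissue more cells of a type and more RNA per cell cannot be told apart, here and in every cell type list that follows.

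Macrophage genes rose in smaller steps. Of 26 measured, 8 rose and none fell, 24 changes were above 0 and the median was 0.60. Marco, a scavenger receptor of Kupffer cells, read -0.06, 0.98 and -0.30 at 12 months and 2.25, 2.10, 2.31 and 1.14 at 24 months (log2 change 1.75, SE 0.34, adjusted p = 0.00465). Adgre1, an adhesion receptor that marks rodent macrophages, read 1.17, 0.98 and 1.01 at 12 months and 1.72, 1.63, 2.39 and 1.76 at 24 months (log2 change 0.82, SE 0.16, adjusted p = 0.00436), and was the only called member that passed with the slide block (0.042). The ages did not overlap for either gene. Lyz2, lysozyme, rose by 1.09 (adjusted p = 0.0198), Cd68 by 0.61 (0.0221) and Clec4f, a lectin particular to Kupffer cells in rodents, by 0.49 (0.0318). Without the 3 arrays that stand apart, which leaves 1 slide against another, 16 of the 26 macrophage genes, 9 of the 27 T and NK cell genes and 3 of the 10 class II genes were called higher. Those 3 were Ifi30, Ctss and Cd86, and the calls of the class II chains, RT1-DMa and Cd74 were lost (adjusted p = 0.0833 for RT1-DMa to 0.221 for RT1-Da). With a normexp background the calls of RT1-Bb, Nkg7 and Marco were lost (adjusted p = 0.123, 0.0669 and 0.0668).

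Chemokines and interferon-induced genes rose in part. Of 25 chemokines and receptors, 7 rose and 1 fell, with a median of 0.69. Ccl19, which draws T cells and dendritic cells, read 0.17, 0.22 and 0.04 at 12 months and 1.73, 1.08, 2.52 and 1.16 at 24 months (log2 change 1.48, SE 0.28, adjusted p = 0.00405). The younger samples were nearly equal and lay well below all older ones. Ccl22, the member that fell, had a log2 change of -2.04 (adjusted p = 0.000637), but its probe was not well above background on any 24-month array and on only 1 of the 12-month arrays. Of 35 interferon-induced genes, 7 rose and none fell, with a median of 0.49 and 28 changes above 0. Gbp2, a guanylate-binding protein, read 1.78, 2.69 and 1.21 at 12 months and 2.64, 4.07, 3.54 and 2.78 at 24 months (log2 change 1.36, adjusted p = 0.0164). Irgm, an immunity-related GTPase, read -0.81, 0.80 and 0.09 at 12 months and 1.07, 2.38, 1.82 and 0.88 at 24 months (log2 change 1.51, adjusted p = 0.0165). Ifi47, of the same GTPase family, had the largest rise of the list with -1.94, -0.59 and -1.71 at 12 months and -0.20, 1.78, 2.22 and -0.66 at 24 months (log2 change 2.20, SE 0.57, adjusted p = 0.0216). As in the class II genes, 12-month replicate 3 was the highest younger sample for these GTPases and overlapped the older range for Gbp2 and Ifi47.

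Promoter stretches of called GTPase genes that hold the core of the interferon-stimulated response element, GAAANNGAAA or its reverse complement (in capitals), were picked because they hold these letters.
Irgm: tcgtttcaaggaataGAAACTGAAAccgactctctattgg
Igtp: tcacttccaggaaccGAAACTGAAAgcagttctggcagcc
Gbp2: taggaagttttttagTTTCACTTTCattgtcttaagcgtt
They lie at chr10:33742588-33742627 (minus strand), chr10:42874929-42874968 (plus strand) and chr2:234005681-234005720 (plus strand) of GRCr8, and end 9, 78 and 6 bases before the start. The motif was present on either strand of the 250 bases before the start in 18 of the 29 interferon list members with a promoter in the table and in 2.85% of the 9476 promoters. Of the 7 members that rose, Ifi47 and Irf9 did not hold these letters in that window.

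The other immune lists showed fewer calls. Of 13 genes of class I loading and the immunoproteasome 3 rose, Psme2, Tapbp and Ubd, and 1 fell. Ubd, a ubiquitin-like protein induced by interferon, had the largest rise (log2 change 1.90, SE 0.44, adjusted p = 0.0125). B2m, the light chain of class I and among the brightest probes, had a log2 change of -0.46 (adjusted p = 0.0314), which was not called after quantile normalization (adjusted p = 0.90) and turned positive after normexp with quantile normalization. Of 13 B and plasma cell genes only Prdm1 rose (1.0, adjusted p = 0.0447), and of 9 neutrophil genes none rose and Mpo fell while dim. The neutrophil gene S100a9 read -0.25, 1.09 and -0.23 at 12 months and 2.90, 0.98, 4.91 and -0.03 at 24 months (log2 change 1.99, adjusted p = 0.136).

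A single older sample, 24-month replicate 3, stood far above the others in some acute phase genes. Lcn2, lipocalin 2, read -1.37, -0.84 and -0.48 at 12 months and 0.48, 2.06, 8.53 and 0.08 at 24 months, and A2m, alpha-2-macroglobulin, read 7.77 in 24-month replicate 3 against 2.50 to 4.34 in the other 6 arrays. Both are acute phase reactants of rat liver, and neither was called (adjusted p = 0.0983 and 0.616). For Lcn2, however, all older samples lay above all younger ones. Without the 3 arrays that stand apart, which leaves 1 slide against another, Lcn2 was called (log2 change 1.93, adjusted p = 0.0207). Of 26 acute phase genes none rose, and C3 and Cfb fell by 0.57 and 0.46. Both calls were lost after quantile normalization (adjusted p = 0.50 and 0.082). The list mean was 7.34 in 24-month replicate 3 and 6.53 to 6.59 in the other older samples.

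**Figure D3:**
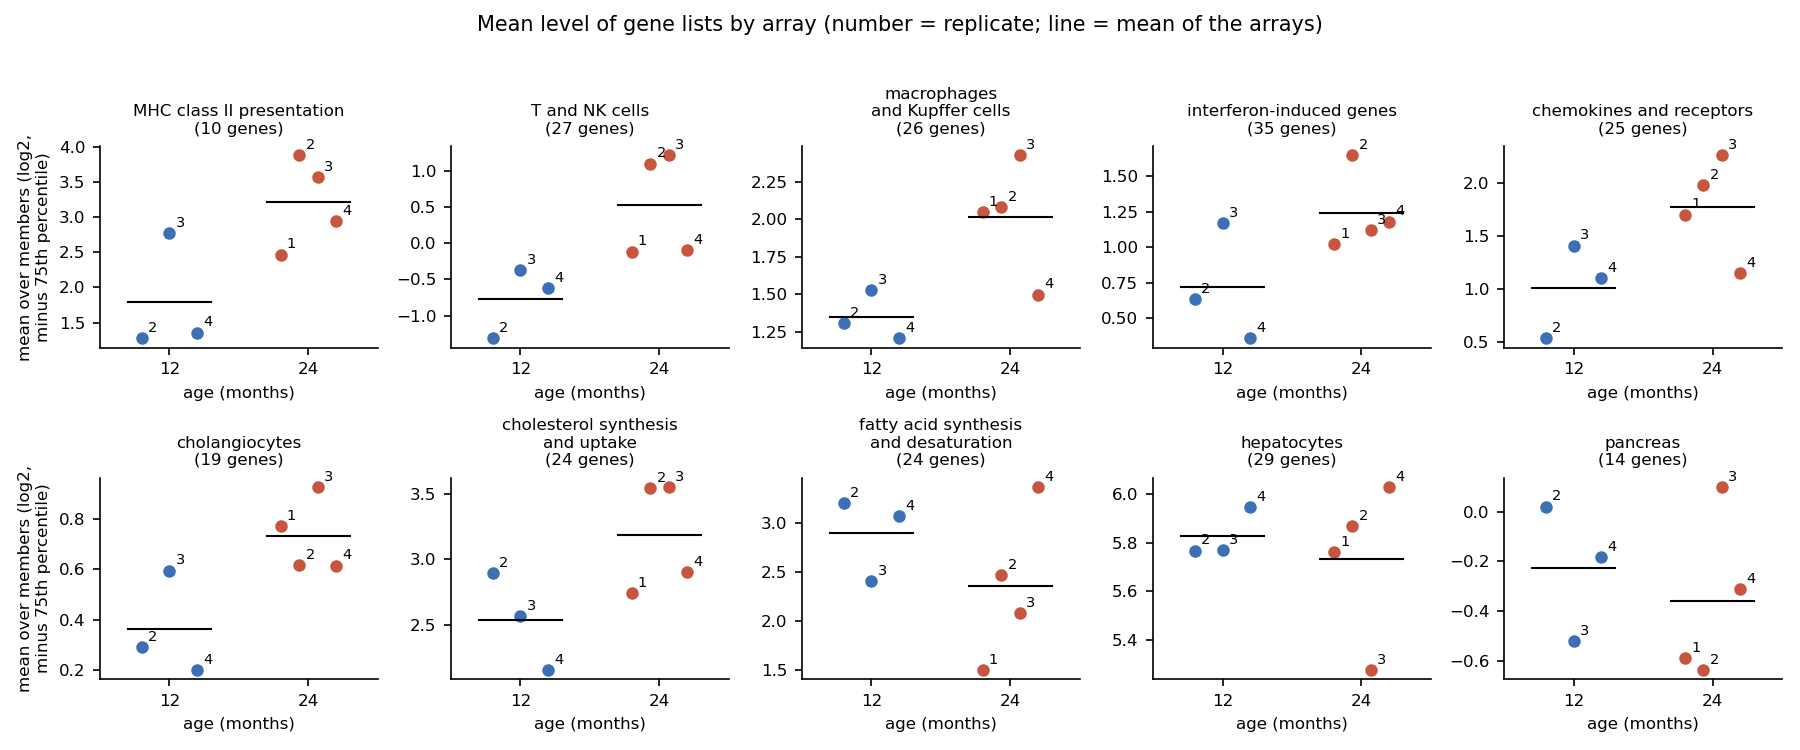
Mean level of the members of 10 gene lists on each array (vertical axis, log2 signal minus the 75th percentile) at 12 and 24 months; points carry the replicate number and lines are means of the arrays. T and NK cell genes run from -1.32 to -0.37 at 12 months and from -0.11 to 1.22 at 24 months without overlap, while class II genes overlap through 12-month replicate 3 and 24-month replicate 1.

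Cholangiocyte genes rose in part. Of 19 measured, 5 rose (Epcam, Krt19, Krt7, Itgb6 and Slc4a2) and 2 fell, among them Cldn4, with a median of 0.76. Epcam, an adhesion molecule of bile duct cells and liver progenitors, read 0.13, 0.33 and -0.08 at 12 months and 0.81, 0.75, 1.10 and 0.89 at 24 months (log2 change 0.76, SE 0.14, adjusted p = 0.00332). Krt19, a keratin of bile ducts, read -2.35, -2.01 and -2.58 at 12 months and -1.26, -0.82, -0.51 and -1.63 at 24 months (log2 change 1.26, SE 0.30, adjusted p = 0.0144). Neither gene had an older sample within the range of the younger ones. Krt7 rose by 2.06 (adjusted p = 0.0442), Sox9 had a change of 0.87 (0.193) and Spp1 of 0.92 (0.151). Cldn4 had a log2 change of -1.26 (adjusted p = 0.000814), but its 2 probes disagreed and their mean changed by 0.097.

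Cholesterol synthesis had more called rises than the other metabolic lists. Of 24 measured genes 5 rose, among them Sqle, Cyp51, Tm7sf2 and Nsdhl, and 1 fell, with 21 changes above 0 and a median of 0.62. Sqle, squalene epoxidase, read 2.22, 2.21 and 0.93 at 12 months and 2.93, 4.23, 4.62 and 2.34 at 24 months (log2 change 1.74, SE 0.47, adjusted p = 0.0241). Cyp51, which demethylates lanosterol, read 2.96, 2.89 and 2.67 at 12 months and 3.22, 4.27, 4.93 and 3.65 at 24 months (log2 change 1.18, SE 0.30, adjusted p = 0.0205). Replicates 2 and 3 at 24 months were the highest for both. Tm7sf2 and Nsdhl, later enzymes of the same pathway, rose by 0.87 (adjusted p = 0.043) and 0.48 (0.0266). None of the 6 calls held without each array, and without the 3 arrays that stand apart 9 members were called higher, between 1 slide and another.

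Fatty acid synthesis showed large differences between samples of the same age. Scd, the delta-9 desaturase, read 6.09, 5.40 and 8.16 at 12 months and 0.21, 2.88, 4.22 and 7.09 at 24 months (log2 change -2.95, SE 1.12, adjusted p = 0.0906). Fasn, fatty acid synthase, read 7.77, 5.16 and 6.07 at 12 months and 3.34, 5.86, 5.08 and 7.51 at 24 months (log2 change -0.88, adjusted p = 0.469). In both, 24-month replicate 1 was the lowest of all and replicate 4 lay among the younger samples. The list median was -0.57, and Dgat1, which makes triglyceride, was the 1 member of 24 that was called (0.34, adjusted p = 0.0304). Fatty acid oxidation had 1 rise, Pdk4, which shuts pyruvate out of the mitochondrion (1.04, adjusted p = 0.0384), and 1 fall, Bdh1, of 30 genes. Mogat2, a monoacylglycerol acyltransferase, read -1.20, -1.17 and -1.25 at 12 months and -2.66, -2.45, -2.0 and -2.18 at 24 months (log2 change -1.12, SE 0.16, adjusted p = 0.000789), with a clear gap between the ages. Fabp1, the bright fatty acid binding protein of hepatocytes, had a change of -0.89 (adjusted p = 0.0213), which was not called after quantile normalization (0.086).

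In glucose metabolism 17 of 19 changes were below 0, with a median of -0.29. Pygl, liver glycogen phosphorylase, read 3.60, 4.02 and 4.06 at 12 months and 2.49, 2.73, 2.45 and 3.43 at 24 months (log2 change -1.12, SE 0.23, adjusted p = 0.00646). The nearest older sample, replicate 4, lay just below the lowest younger one. Pklr, liver pyruvate kinase, fell by 1.12 (adjusted p = 0.0476). The 2 members above 0 were Fbp2 and Hk1 (1.18, adjusted p = 0.0163), forms typical of muscle and of non-hepatocyte tissue. Fbp2 is also on the muscle list, where it was the 1 rise of 10 genes. There Atp2a1, the calcium pump of fast muscle, fell by 1.30 (adjusted p = 0.0041). It was dim too, with means of -3.43 at 12 months and -4.73 at 24 months, and well above background on only 1 24-month array. With a normexp background its change was -0.14 and was not called. The dim Actn2 and Myh2 were called lower while above background on no 24-month array, and the list median was -0.15.

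The growth hormone, IGF and insulin axis had 1 rise, Igfbp2, and 3 falls of 21 genes, 19% called against 15% of all genes. Igf1, the circulating growth factor that growth hormone induces in hepatocytes, read 9.77, 9.52 and 9.59 at 12 months and 8.84, 8.94, 8.57 and 9.38 at 24 months, 1.62-fold lower (log2 change -0.69, SE 0.16, adjusted p = 0.0113). It is among the brightest genes, whose median change was -0.32, and it passed after quantile normalization (adjusted p = 0.0314). Irs1, the insulin receptor substrate, read -0.83, -1.42 and -1.27 at 12 months and -1.90, -1.89, -2.27 and -1.85 at 24 months (log2 change -0.80, SE 0.15, adjusted p = 0.00338). Cish, a feedback inhibitor induced by growth hormone, read -0.56, 1.18 and 0.57 at 12 months and -0.09, -2.08, -1.68 and -0.41 at 24 months (log2 change -1.46, adjusted p = 0.0427). The ages were apart for Igf1 and Irs1 and overlapped for Cish, through 12-month replicate 2. Of 17 male-biased liver genes Obp3 and Cyp2c13 fell and none rose. This share of 11.8% lower was near the 10.9% of all genes. Of the changes, 14 were below 0, and the median was -0.51. Of 14 female-biased genes Abcb1b rose and Hao2 fell, 14.3% called against 15% of all genes, with a median of 0.30. Cyp2c12, the female-specific steroid hydroxylase of rat liver, had a change of 0.89 (adjusted p = 0.145).

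Drug metabolism had 3 rises and 1 fall of 25 genes, 16% called against 15% of all genes, with 20 changes above 0. Besides Abcc3, Aldh1a7 rose by 1.58 (adjusted p = 0.0107) and Ugt2b1, a glucuronosyltransferase, by 0.85 (0.0264), and the bright glutathione transferase Gsta2 fell by 0.70 (0.0131). Of 18 bile acid genes the uptake transporter Slco1b2 fell by 0.67 (adjusted p = 0.0446), and Cyp7a1, the rate-limiting enzyme of bile acid synthesis, had a change of 0.72 (0.323). Of 33 genes of amino acid and urea metabolism the taurine pathway enzymes Cdo1 and Csad fell, by 1.18 and 1.75 (adjusted p = 0.0248 and 0.0277). Cdo1 read 5.23, 4.49 and 5.31 at 12 months and 3.89, 3.96, 2.88 and 4.58 at 24 months, with 24-month replicate 4 inside the younger range.

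Among immediate early genes 5 of 22 fell (22.7%, against 10.9% lower for all genes) and none rose, while the median was 0.04. Fosb, an AP-1 subunit, read 2.25, 1.89 and 1.70 at 12 months and 0.61, 0.72, 0.65 and 1.04 at 24 months (log2 change -1.20, SE 0.16, adjusted p = 0.000438). It was called without each array, with the 2 ages alone (0.0309), with the slide block (0.00584) and with a normexp background (0.0138). Gadd45g, a stress-response protein, read 5.35, 5.99 and 4.49 at 12 months and 3.42, 3.09, 3.13 and 3.86 at 24 months, 3.74-fold lower (log2 change -1.90, SE 0.41, adjusted p = 0.00806). Klf10, induced by TGF-beta, fell by 1.27 (adjusted p = 0.0104). The classical members did not follow, with changes of 0.53 for Egr1, 0.26 for Fos, -0.14 for Jun and 0.07 for Junb, none called.

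Of 42 cytosolic ribosomal protein genes 7 rose and 2 fell, 21.4% called against 15% of all genes, with a median of 0.04. Rpsa read 4.01, 4.55 and 3.77 at 12 months and 4.89, 5.09, 5.25 and 5.0 at 24 months (log2 change 0.94, SE 0.18, adjusted p = 0.00455). Of 30 proteasome genes Psmb7 alone rose (0.65, adjusted p = 0.00576), and of 33 oxidative phosphorylation genes Cox4i1 alone rose (0.64, 0.00684). Of 21 cytosolic chaperone genes Hspb1, Dnajb1 and Chordc1 rose and none fell (14.3% called), with 17 changes above 0 and a median of 0.26. Of 21 ER stress genes limma called 0, with 3 at an unadjusted p under 0.05. Cell division genes had 1 rise and 1 fall of 34, with 25 changes above 0 and a median of 0.35. Of 27 CDK inhibitor and senescence genes, with a median of 0.32, 3 rose and none fell, 11.1% called against 15% of all genes. Among the 3 were the chemokine Ccl2 and the protease Mmp12, which are also on other lists. Cdkn1a, the p21 inhibitor, read 1.17, 3.45 and 2.82 at 12 months and 3.45, 3.38, 4.16 and 3.69 at 24 months (log2 change 1.19, adjusted p = 0.0766), and Cdkn2a had a change of -0.61 (0.0601).

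The hepatocyte markers check the labelled tissue. Of 29, 1 rose and 2 fell, with a median of -0.08, and their mean level was 5.77 to 5.94 at 12 months and 5.28 to 6.03 at 24 months. Albumin read 9.22, 9.60 and 9.87 at 12 months and 9.45, 9.47, 8.98 and 9.40 at 24 months, so the samples of both ages had the marker of liver. Matrix and stellate genes had 1 rise, Tgfb1 (1.24, adjusted p = 0.0103), and 2 falls of 35, and the fibrillar collagens Col1a1 and Col3a1 had changes of -0.23 and -0.13, not called. Liver endothelium had 1 rise, the scavenger receptor Stab2 (0.77, adjusted p = 0.036), and 3 falls of 23, Gpihbp1, Wnt2 and Rspo3. The called shares of the matrix and endothelium lists were 8.57% and 17.4%, against 15% of all genes.

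Genes of the pancreas, a neighbouring organ, were the list with the lowest median. Of 14 measured, 7 fell and none rose, against 10.9% lower for all genes, and the median was -0.97. Prss2, a trypsinogen, read -2.62, -2.27 and -2.25 at 12 months and -3.65, -3.81, -2.96 and -3.24 at 24 months (log2 change -1.03, SE 0.19, adjusted p = 0.00302). Ins2 and Cela2a lay well above background on every 12-month array and on no 24-month array, and against the background limit, the lowest signal that counts as well above background on each array, they were at least 1.48-fold and 1.76-fold lower. In contrast Cpb1, a carboxypeptidase, had a change of 1.07 (adjusted p = 0.0746) and Spink1 of 0.93 (0.35), and the mean of the list was -0.52 to 0.02 at 12 months and -0.64 to 0.10 at 24 months. Of the 14 genes, 7 lay well above background on all 7 arrays, and the members that fell had mean levels under -1 at both ages. The list median shrank to -0.12 with a normexp background. The part of pancreatic RNA and of the shift of dim probes was not tested. Erythroid cells had 1 fall of 11 genes, and of 11 adipocyte genes limma called 0, with 4 at an unadjusted p under 0.05.

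**Figure D4:**
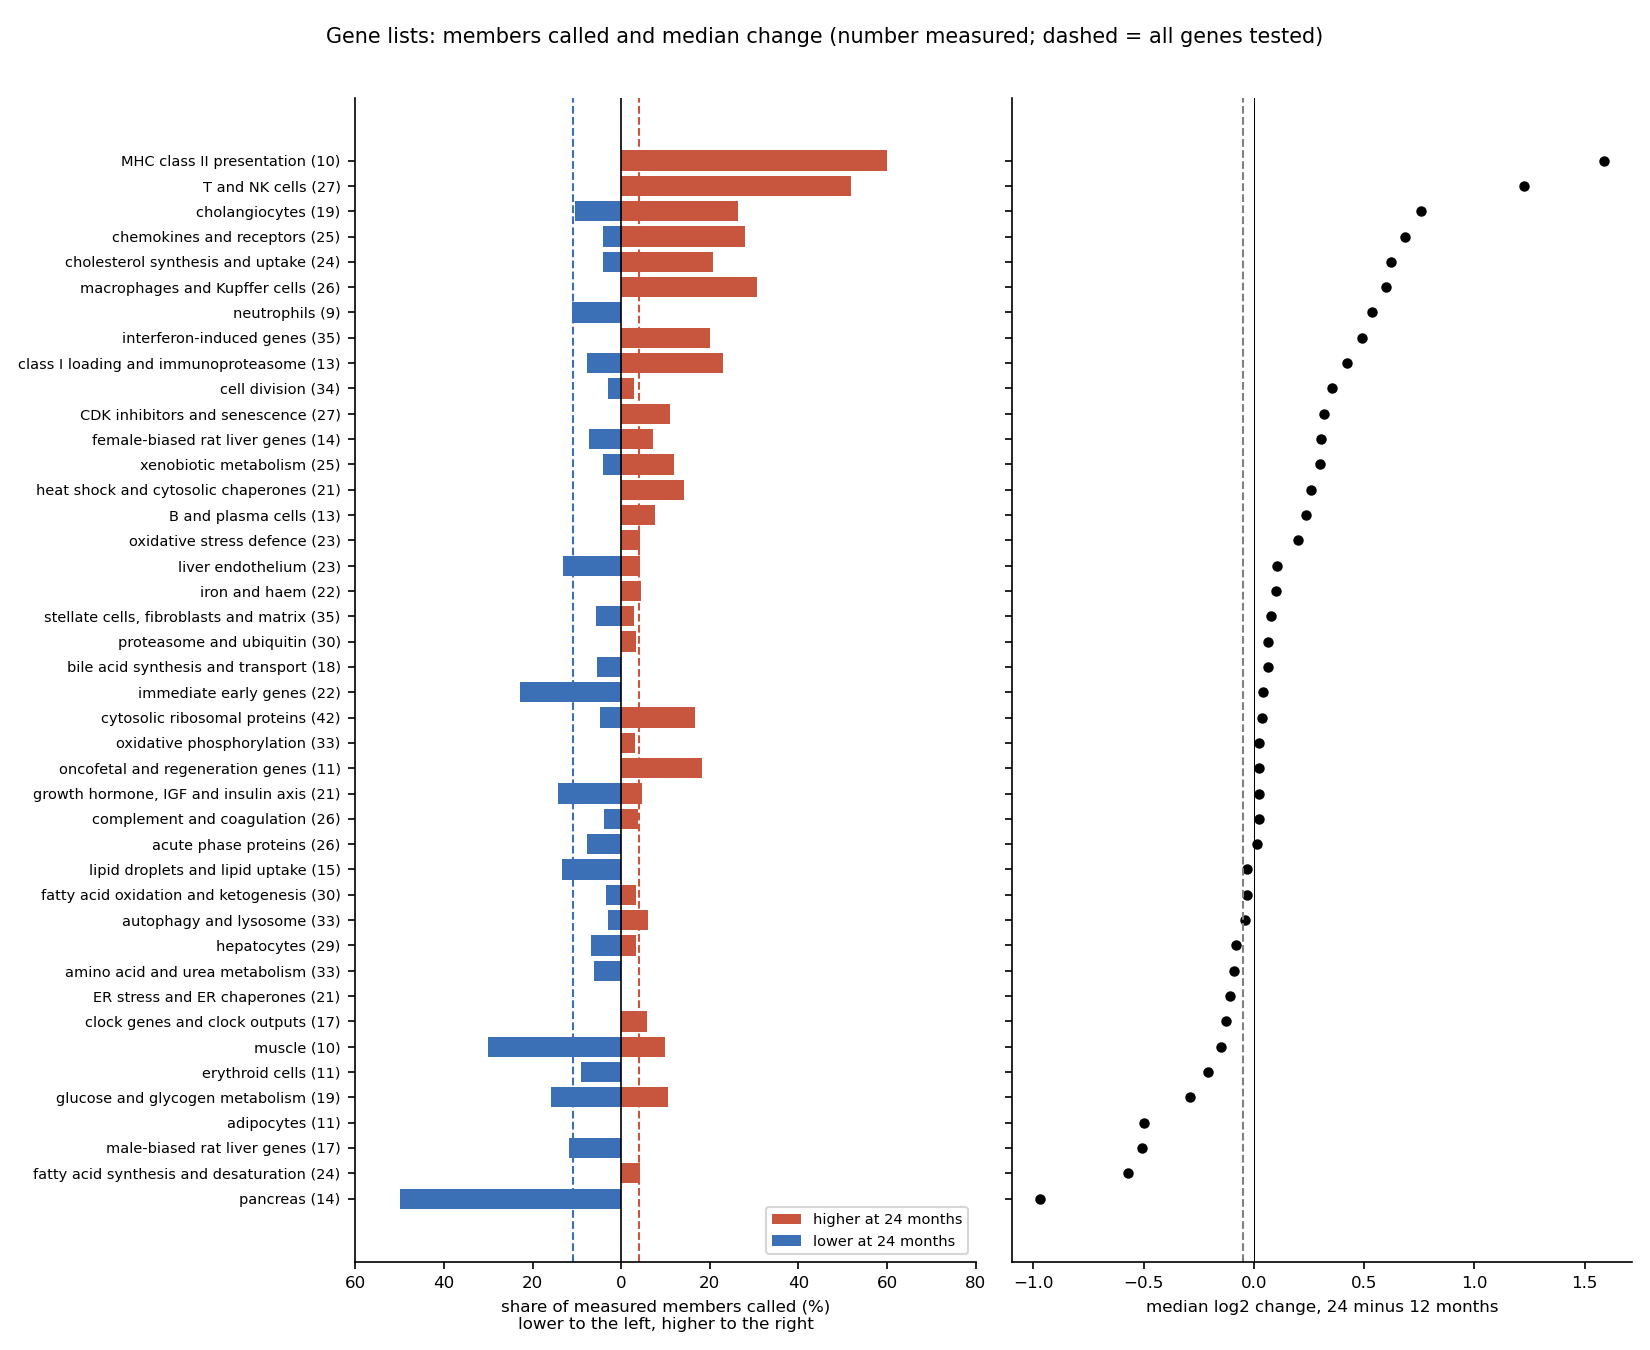
Gene lists ordered by median change, with the number of measured members in brackets: share of members called lower (left, blue) or higher (right, red) at 24 months, and median log2 change (right panel), with dashed lines for all genes tested (4.11% higher, 10.9% lower, median -0.05). Class II genes (median 1.59) and T and NK cell genes (1.23) lie at the top and pancreas genes (-0.97) at the bottom.

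Some probes were well above background in all 3 samples of 12 months and in none of the 4 of 24 months. There were 91 such genes among those called, and none with the reverse pattern. They were chosen for this pattern, so their values are a description. Or2h2, an olfactory receptor, read -3.38, -3.44 and -3.02 at 12 months and -6.64, -6.39, -5.88 and -5.86 at 24 months. Against the background limit it was at least 1.89-fold lower. Spag4, a nuclear envelope protein of sperm, was at least 1.78-fold lower and Chrnb4, a nicotinic receptor subunit, at least 1.23-fold lower. Each of these is in the dim range in which 598 of 2353 genes fell.

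Clock genes were compared because the hour of collection is not given. The core clock couples the activators Bmal1 and Npas2 to the repressors Per, Cry and Nr1d1, and Dbp and Nfil3 drive outputs with opposite phase. Dbp read 5.50, 5.44 and 5.29 at 12 months and 4.87, 3.62, 2.91 and 5.04 at 24 months (log2 change -1.30, adjusted p = 0.0565). Its means at 3 and 9 months were -0.59 and -0.36, so both ages of this comparison lay on the high side. Bmal1 read -2.84, -3.0 and -1.17 at 12 months and -1.99, -0.91, 0.46 and -2.06 at 24 months (log2 change 1.21, adjusted p = 0.279), below its means of 2.23 and 2.24 at 3 and 9 months.

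Of 17 clock genes measured, only Nfil3 was called. It read 1.06, 0.95 and 0.44 at 12 months and 1.81, 2.12, 2.28 and 1.20 at 24 months (log2 change 1.04, adjusted p = 0.0094), and all older samples were above the younger ones. Nr1d1 had a change of -0.97 (adjusted p = 0.0569), Npas2 of -2.31 (0.0768) and Bhlhe41 of -1.03 (0.0886), while Per3, Per2 and Tef had changes of -0.13, 0.15 and -0.11. Usp2, a clock-driven deubiquitinase, read 0.28 in 24-month replicate 3 against 2.26 to 2.93 in the other 6 arrays. For Dbp, Bmal1, Npas2 and Per3 the means of 12 and 24 months thus lay nearer to each other than to 3 and 9 months. Nfil3 and Nr1d1 did not keep this order, since their 24-month means of 1.85 and 0.37 lay nearer to 2.19 and 0.44 at 3 months than to 0.82 and 1.34 at 12 months. Replicates 2 and 3 at 24 months were the lowest in Dbp and the highest in Nfil3, and they were also the highest in T and NK cell and cholesterol genes. The part of the hour of collection was not tested.

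**Figure D5:**
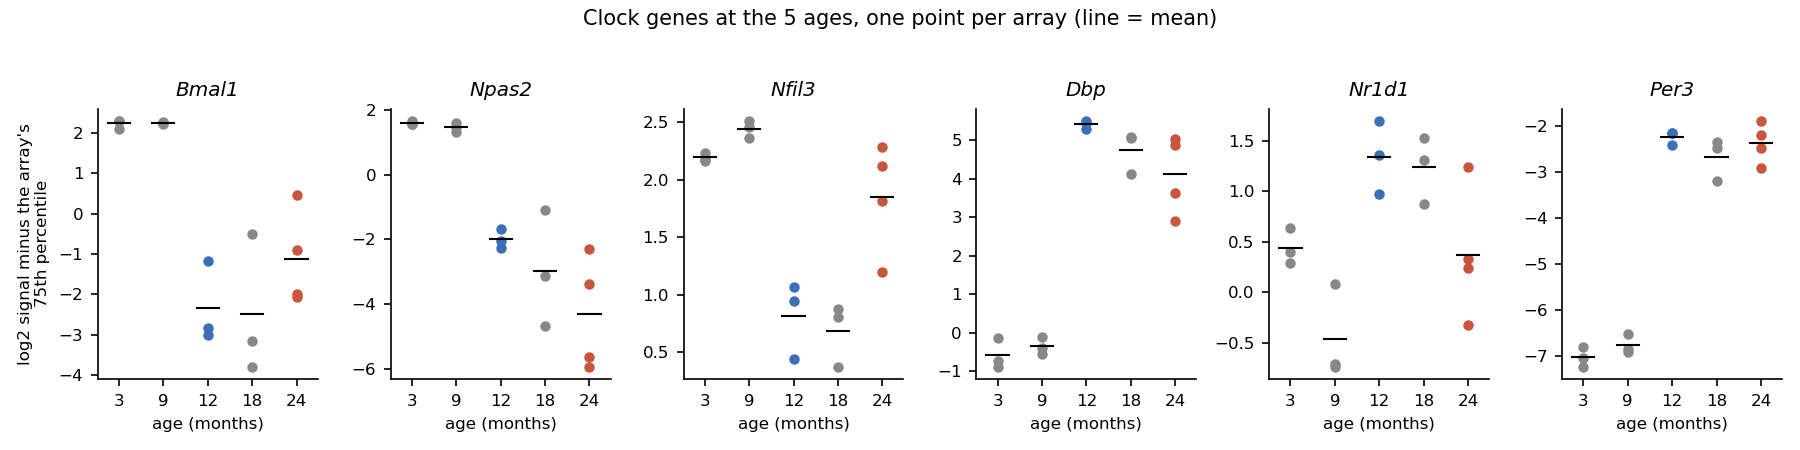
Level of 6 clock genes on each array (vertical axis, log2 signal minus the 75th percentile) at 3, 9, 12, 18 and 24 months (horizontal axis), with points for arrays, coloured at 12 and 24 months, and lines for means. Dbp is between 2.91 and 5.50 at 12 and 24 months and near -0.59 and -0.36 at 3 and 9 months, and Bmal1 runs the other way.

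Levels at 18 months, from arrays that enter neither group, are set beside these changes, bearing in mind that the contrasts share arrays. The 18-month arrays were scanned in session 2, on the same day as 12-month replicates 3 and 4. All 24-month arrays were scanned in session 1. Between 18 and 24 months, age and scan session therefore cannot be told apart. From 12 to 18 months 230 genes were higher (1.07%) and 69 lower (0.322%), and from 18 to 24 months 2326 were higher (10.8%) and 3216 lower (15%). Cdh13 rose by 2.66 from 12 to 18 months (adjusted p = 0.029) and changed by 0.02 from 18 to 24 months. Igfbp2 had a mean of -2.55 at 18 months, Sqle of 2.22, Krt19 of -2.59 and Oasl2 of -0.11, all near their 12-month levels. Slc31a1 had a mean of 1.63 at 18 months, above both other ages, and Lyz2 had a mean of 1.78, within its 12-month range of 1.52 to 2.22.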

How the data were processed

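Liver RNA of 16 male Lewis rat samples was measured on 1-colour Agilent arrays; the 3 samples of 12 months and 4 of 24 months were compared, grouped by the age in the labels. Per the file headers, the processed signal, mean signal and background columns hold intensity values made with Feature Extraction 10.7.3.1 (protocol GE1_107_Sep09), with flag columns (of another kind) for spots that are bright, saturated or outliers. The deposited series table holds log2 values whose normalization between arrays is not stated; its direction and scale followed the scanner values. Probe positions in the headers are of build rn4 and are not used here.

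The log2 processed signal minus each array's 75th percentile was used, with flagged outlier spots missing and spots of a probe averaged. A probe stayed in (25697 of 41012) where each array of some age had it well above background, a gene was its probe with the highest mean, and 21458 genes were tested, 11526 with a symbol. Of 3384 genes with more than 1 kept probe, 13 had probes called both ways. Probes were named by their accession, symbol or synonym through RefSeq tables (18028, 3168 and 400 probes) or else kept the name on the array. Promoters came from RefSeq, build GRCr8.

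A mean per age was fitted to all 16 arrays with limma 3.58.1 in R 4.3.3 (11 residual degrees of freedom), with a two-sided test, p-values adjusted after Benjamini and Hochberg and a call at under 0.05. The number of arrays limits the precision. The test was checked on simulated data. Alternatives were quantile normalization, a normexp background (offset 50), the deposited table, other filters and probe rules, slide, session and replicate blocks, the 2 ages alone, array weights and leaving out arrays; normexp with quantile normalization was added after the data were seen. Same-numbered samples had deviations correlated at -0.0814, 0.0715 and -0.13, so the numbers do not pair them.

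Genes were named by rule: the 15 largest rises and 15 largest falls among called genes with a symbol above background on all 7 arrays, the called members of each list with the lowest adjusted p (at most 4), up to 3 genes above background at 1 age alone, and the clock genes, 142 in all. Other list members were picked after their values were seen. The arrays compared, the gene lists and the rule were chosen with earlier results of these data known. Some named genes are not reported here.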

Additional observations from a re-analysis of the deposited data

Results flagged for a closer look

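Among 142 named genes and 42 list means, 9 had a 24-month array that stood apart from the other 3 by Dixon's ratio (critical value 0.829 for 4 arrays). Chance marks about 1 in 20 groups, which over this many groups is about as many as the 9 found. They are listed as a description. Slco1b2, an uptake transporter, read 5.76 in replicate 4, with the nearest other array at 5.18. Irs1, the insulin receptor substrate, read -2.27 in replicate 3 (nearest -1.90). Irf9, a partner of the interferon-activated STAT proteins, read 0.954 in replicate 2 (nearest 0.401). Rps4x, a ribosomal protein, read 5.95 in replicate 3 (nearest 5.77). Cry2, a clock repressor, read -2.39 in replicate 3 (nearest -1.80), and Usp2, a clock output, 0.277 in the same array (nearest 2.52).

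The mean of the acute phase genes was 7.34 in replicate 3, with the nearest at 6.59. The mean of the cell division genes was -0.17 in replicate 2 (nearest -1.08). The mean of the adipocyte genes was 4.37 in replicate 4 (nearest 2.97).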

How the results depend on the processing

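Of the 3211 calls, the count fell to 86 with a normexp background, 622 with slide as a random block, 568 with the 2 ages alone and 1513 for at least 2-fold, and rose to 5380 with scan session as a term (1781 shared) and 5024 without the 3 arrays that stand apart (2622 shared). With a replicate block, which has no support as a pairing, limma called 0, with 2908 at an unadjusted p under 0.05. Leaving out 1 array gave 1986 (without 12-month replicate 4) to 4798 (without 24-month replicate 4). Quantile normalization gave 2987, the authors' deposited values 3007 and session 1 alone, with 1 array of 12 months, 4059 (1345 shared). The share of higher calls was 27.5%, against 5.81% with normexp, 38.4% for genes above background on all 7 arrays and 39.3% without the 3 arrays. Changes that turned were B2m (0.0058, normexp with quantile normalization), Cldn4 (0.097, mean of its probes) and Myh2 (0.0016, normexp); the cause was not tested. Of 126 named called genes, 109 stayed called after quantile normalization, 9 with normexp, 20 with the slide block, 15 with the 2 ages alone, 68 with session as a term and 53 in session 1 alone. Medians of the acute phase and immediate early lists turned negative with normexp (-0.17 and -0.10). Signal over background limits the dim genes, and slide and age cannot be told apart.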
